A study of Mus musculus with 6 samples.

Results

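The genes described here encode the proteins of the mitochondrial ribosome, whose transcripts were counted in RNA sequencing libraries of whole mouse hearts taken on postnatal day 14. They were taken as all protein-coding genes whose symbol starts with Mrpl (large subunit) or Mrps (small subunit) followed by a number. Of 78 such genes in the annotation, 77 were listed among the 20121 genes of the tables, 48 of the large and 29 of the small subunit, and Mrpl33 was not analysed here. In all, 76 of the 77 had enough counts to be tested, among 14877 tested genes. The exception, Mrpl53, held only 1 to 5 counts per library, and 88.0% of its exon bases are shared with another annotated gene, Gm42688, on the same strand.

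Both groups of 3 pups, on a mixed ICR; C57BL/6 background, carried TRalphaAMI, a knock-in allele of the gene for thyroid hormone receptor alpha that gives a dominant negative receptor once Cre recombinase has acted on it. The control pups had no Cre, and their mutant littermates had Myh6-Cre in addition, so that recombination is driven by the Myh6 promoter, which is active in heart muscle cells. The comparison asks how gene expression in the heart changes when the altered receptor is made in these cells. There was no group with Myh6-Cre alone, so effects of Cre and of the receptor cannot be told apart. What the p-values weigh is the variation among these 6 hearts.

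Mitochondria translate the few proteins encoded in their own genome, all of them subunits of the respiratory chain or of ATP synthase, on ribosomes of their own. The rRNAs of these ribosomes come from the mitochondrial genome, while every ribosomal protein is encoded in the nucleus, made in the cytosol and imported. Part of these proteins have counterparts in the bacterial ribosome and the rest were added during the evolution of mitochondria, and heart muscle, with its dense mitochondria, makes much use of them. Human variants in several of the genes, MRPL3 and MRPL44 among them, are known to cause cardiomyopathy in infancy.

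The libraries held 43314706 to 62095277 counts, and 145 counts were the fewest that any tested gene of the mitochondrial ribosome had in any library. Transcripts of the mitochondrial genome took 22.3 to 24.8% of counts in control hearts and 16.7 to 18.8% in mutant hearts. This share moves with the group, and levels are therefore given as CPM, counts divided by library size, with libraries scaled by TMM, a correction for differences in library composition. Correlations between libraries were 0.992 to 0.995 within groups and 0.970 to 0.974 across groups. Of 6 cardiomyocyte markers 5 fell, all but Tnnt2, and their summed level was 34751 to 39859 CPM in control and 28105 to 29664 CPM in mutant hearts. Among 5 markers each, 4 endothelial markers fell (1117 to 1211 against 964 to 1032 CPM) and 2 fibroblast markers, Dcn and Pdgfra, rose (1301 to 1409 against 1523 to 1634 CPM). Of 5 macrophage and leukocyte markers 4 were tested and 3 fell (45.7 to 51.5 against 32.8 to 32.9 CPM). Of 5 smooth muscle and pericyte markers Rgs5 fell and Cspg4 rose (1707 to 1831 against 1556 to 1653 CPM). Among skeletal muscle markers only Tnni2 fell, and no erythroid or adipocyte marker that was tested fell or rose. Beside these few markers, 19.5% of all tested genes fell and 18.1% rose. In RNA of whole hearts, fewer cells of a type and less RNA per cell cannot be told apart. The part of these shifts in the values below was not tested.

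Stretches of the promoters of these genes are shown first. RefSeq promoter windows (build GRCm38.p6), 250 bases before to 50 bases after a transcript start, matched 68 of the 77 genes, with 74 windows. Searched on both strands, the palindromic motif of nuclear respiratory factor NRF1 was in 13 of the 74 windows (17.6%), against 8.89% of the 14424 windows of tested genes and 4.6% of all 32851 windows. CCGGAAG, the core bound by ETS factors such as GABP, was in 25 (33.8%), against 15.9% and 8.86%. AANATGGCG, bound by YY1, was in 11 (14.9%), against 4.43% and 2.38%. TNAAGGTCA, bound by estrogen-related receptors, was in 0 of the 74 windows, against 0.756% and 1.28%. AGGTCA, the hexamer core that nuclear receptors including thyroid hormone receptors bind and that lies within the preceding motif, was in 11 windows (14.9%), against 12.5% and 16.3%. CACGTG was in 7 windows (9.46%), against 9.51% and 7.15%. Windows of cytosolic ribosome protein genes held the ETS letters in 34.7% and the NRF1 letters in 5.56%, and those of nuclear respiratory chain genes in 22.9% and 25.7%. No test was made of these shares, and a match is a description of letters, not of binding. The 100 bases before the start follow for 7 genes, with an NRF1 match (first 3) or an ETS match (last 4) in capitals. The first 6 belong to genes that fell in the mutant hearts and the last to Mrpl52, which did not. They lie at chr11:120484537-120484636 on the plus strand for Mrpl12, chr1:37890377-37890476 (plus) for Mrpl30, chr3:95871515-95871614 (minus) for Mrps21, chr8:71464826-71464925 (plus) for Mrpl34, chr11:115403652-115403751 (plus) for Mrpl58, chr17:46110904-46111003 (plus) for Mrps18a and chr14:54426809-54426908 (plus) for Mrpl52. The NRF1 matches and the match of Mrpl52 read on the strand opposite to the gene. The last bases of the windows of Mrpl12, Mrps21 and Mrps18a already lie inside the gene in the GENCODE annotation.
Mrpl12: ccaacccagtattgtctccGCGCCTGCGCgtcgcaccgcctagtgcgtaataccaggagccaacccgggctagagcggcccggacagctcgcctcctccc
Mrpl30: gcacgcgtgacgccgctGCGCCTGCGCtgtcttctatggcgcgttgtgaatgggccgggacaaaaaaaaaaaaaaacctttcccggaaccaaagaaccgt
Mrps21: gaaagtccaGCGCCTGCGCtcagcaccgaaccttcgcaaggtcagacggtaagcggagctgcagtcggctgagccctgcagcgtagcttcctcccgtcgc
Mrpl34: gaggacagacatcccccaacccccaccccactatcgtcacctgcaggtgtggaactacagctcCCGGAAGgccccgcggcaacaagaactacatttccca
Mrpl58: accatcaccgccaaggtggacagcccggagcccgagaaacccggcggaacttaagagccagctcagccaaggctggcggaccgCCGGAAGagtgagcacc
Mrps18a: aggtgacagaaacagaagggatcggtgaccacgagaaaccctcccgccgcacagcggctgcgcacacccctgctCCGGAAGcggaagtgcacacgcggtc
Mrpl52: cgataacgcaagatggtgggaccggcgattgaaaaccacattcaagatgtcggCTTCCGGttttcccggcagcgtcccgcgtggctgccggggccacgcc
The matches start 81, 83 and 91 bases before the transcript start in Mrpl12, Mrpl30 and Mrps21. The ETS matches start 37, 17, 26 and 47 bases before it in Mrpl34, Mrpl58, Mrps18a and Mrpl52. Among the genes that fell, NRF1 letters were in 12 of their 64 windows (18.8%) and in 1 of the 9 windows of tested genes that were not called (11.1%), and ETS letters in 32.8% and 33.3%.

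In the mutant hearts, 67 of the 76 tested genes fell and 0 rose (edgeR's quasi-likelihood test, Benjamini-Hochberg adjusted p under 0.05 over all genes), where 19.5% of all tested genes fell and 18.1% rose. The count that fell was 88.2% of the genes, 43 of 47 in the large subunit (91.5%) and 24 of 29 in the small subunit (82.8%). At an unadjusted p under 0.05, 2 genes were higher, and DESeq2 called 67 lower and 0 higher (16.9% and 16.1% of its genes). With libraries scaled by their totals alone, here called library totals only, which makes no correction for composition, 24 fell and 5 rose, beside 8.11% and 50.3% of all genes. The median log2 fold change was -0.41 (quartiles -0.52 and -0.32), a level of 75.2% of control, and the median over all tested genes was -0.00 (quartiles -0.23 and 0.23). The genes that fell had between 48.2% and 85.8% of their control level, 36 of the 67 lying between 50 and 75%, and only Mrpl55 lay below 50%. These were small shifts measured with little spread, as the within-group coefficient of variation had a median of 5.52%.

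**Figure D1:**
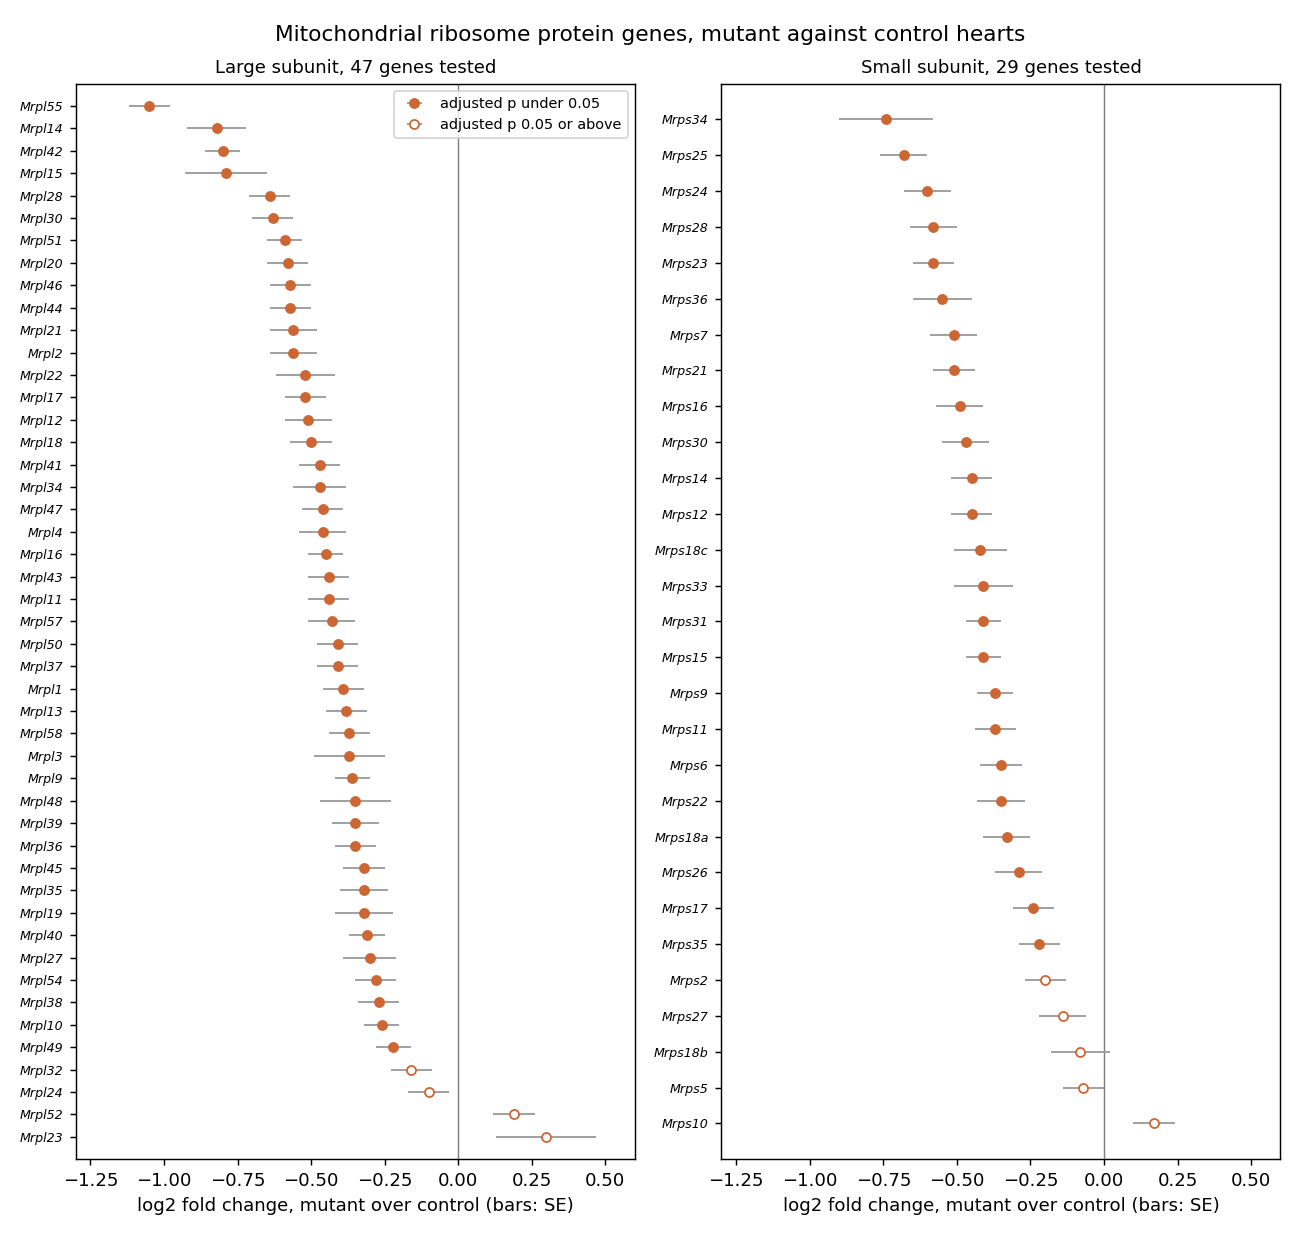
Log2 fold change, mutant over control, of each tested gene of the large subunit (left, 47 genes) and small subunit (right, 29 genes, by symbol), with its SE as a bar and filled points for an adjusted p under 0.05. All 67 filled points lie left of 0 under TMM scaling, and with library totals only 24 genes fell and 5 rose.

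The groups separated gene by gene. For 68 of the 76 genes every mutant heart lay below every control heart, 43 in the large and 25 in the small subunit, against 25.4% of all tested genes. For 2 genes, Mrpl52 and Mrps10, every mutant heart lay above (24.4% of all genes), and for 6 the groups overlapped. Each of the 3 mutant hearts had 73 of the 76 genes below the control mean, while the control hearts had 55, 14 and 47 there, so control replicate 2 lay above that mean for most genes. Among the genes that fell, only Mrpl48 overlapped between groups, with 26.1, 29.7 and 30.7 CPM in control and 20.6, 20.2 and 27.2 CPM in mutant hearts. Its call was lost in 4 of the 6 fits that leave out a heart.

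In the large subunit the largest fall was that of Mrpl55 (ENSMUSG00000036860, chr11:59202486-59206134, plus strand, build mm10), a protein of the mitochondrial ribosome's large subunit. Its level was 39.9, 44.2 and 41.5 CPM in control hearts and 20.8, 19.6 and 20.1 CPM in mutant hearts. All mutant hearts thus lay near 20 CPM, far below the lowest control. The mean went from 41.8 ± 2.17 to 20.2 ± 0.604 CPM (mean ± SD, 3 hearts each). On the log2 scale this was a change of -1.05 ± 0.07 (SE, edgeR adjusted p = 2.92e-06).

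Mrpl42 (ENSMUSG00000062981, chr10:95480805-95501940, minus strand), which has no bacterial counterpart, had the highest CPM of the Mrpl and Mrps genes named here. It had 144, 151 and 145 CPM in control and 86.1, 81.4 and 85.5 CPM in mutant hearts. The gap between groups was many times the spread within them, with a log2 fold change of -0.80 ± 0.06 (edgeR adjusted p = 7.16e-06).

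Mrpl14 (ENSMUSG00000023939, chr17:45686322-45698495, plus strand) encodes a protein at the interface between the subunits, the site where the assembly factor Malsu1 binds. Its level was 24.3, 29.0 and 25.9 CPM in control and 14.9, 13.5 and 16.5 CPM in mutant hearts, a log2 fold change of -0.82 ± 0.10 (edgeR adjusted p = 0.000142). Of its exon bases 11.2% overlap Tmem63b on the opposite strand, and the library kit does not mark strand.

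Mrpl15 (ENSMUSG00000033845, chr1:4773206-4785739, minus strand), the counterpart of a bacterial protein of the same number, was the least even. Its control hearts had 79.2, 83.5 and 82.6 CPM and its mutant hearts 43.1, 38.6 and 60.6 CPM. Mutant replicate 3 stood above the other two yet below every control heart, and the mutant SD of 11.6 CPM was the widest of the Mrpl and Mrps genes named here. The log2 fold change was -0.79 ± 0.14 (edgeR adjusted p = 0.00199), and -1.01 without that heart.

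Mrpl28 and Mrpl30, both with bacterial counterparts, completed the 6 largest falls of the subunit. Mrpl28 went from 56.1, 61.3 and 60.1 CPM in control to 36.5, 37.4 and 40.2 CPM in mutant hearts, 64.3% of control. Mrpl30 (chr1:37890477-37898535, plus strand), shown above with its NRF1 letters, had 95.1, 95.7 and 92.7 CPM in control and 65.3, 56.6 and 61.7 CPM in mutant hearts. Its log2 fold change was -0.63 ± 0.07 (edgeR adjusted p = 8.24e-05).

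Mrpl12 encodes the stalk protein that helps recruit translation factors, and it also binds the mitochondrial RNA polymerase. It had 81.8, 94.8 and 87.9 CPM in control and 64.7, 57.1 and 64.1 CPM in mutant hearts, without overlap. The log2 fold change was -0.51 ± 0.08 (edgeR adjusted p = 0.000702), with 13.1% of its exon bases overlapping the opposite-strand gene Gm16755. Of its partners in the stalk, Mrpl10 was at 83.7% and Mrpl11 at 73.6% of control (log2 fold changes -0.26 ± 0.06 and -0.44 ± 0.07, edgeR adjusted p 0.0117 and 0.000798). Mrpl10 and Mrpl11, like Mrpl44 and Mrpl3 below, were picked for their roles after their values were seen. Mrpl10 was not called without control replicate 2 or without mutant replicate 2.

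Mrpl58, also called Ict1, is a peptidyl-tRNA hydrolase built into the large subunit that releases chains from stalled ribosomes. It had 30.4, 33.1 and 34.0 CPM in control and 25.8, 24.2 and 25.6 CPM in mutant hearts. The groups did not overlap, and the log2 fold change of -0.37 ± 0.07 (edgeR adjusted p = 0.00211) was close to the median of the subunit, -0.43. Its call was lost with library totals only.

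Mrpl44 had 45.8, 47.3 and 44.8 CPM in control and 33.8, 28.3 and 31.0 CPM in mutant hearts, a log2 fold change of -0.57 ± 0.07 (edgeR adjusted p = 0.000299). For Mrpl3 the spread was wider, with 81.6, 87.7 and 67.7 CPM in control and 67.7, 50.8 and 64.3 CPM in mutant hearts. There the groups all but touched, at 67.7 CPM in control replicate 3 and mutant replicate 1, and the log2 fold change was -0.37 ± 0.12 (edgeR adjusted p = 0.0366). The call of Mrpl3 was lost without control replicate 1, control replicate 2 or mutant replicate 2.

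**Figure D2:**
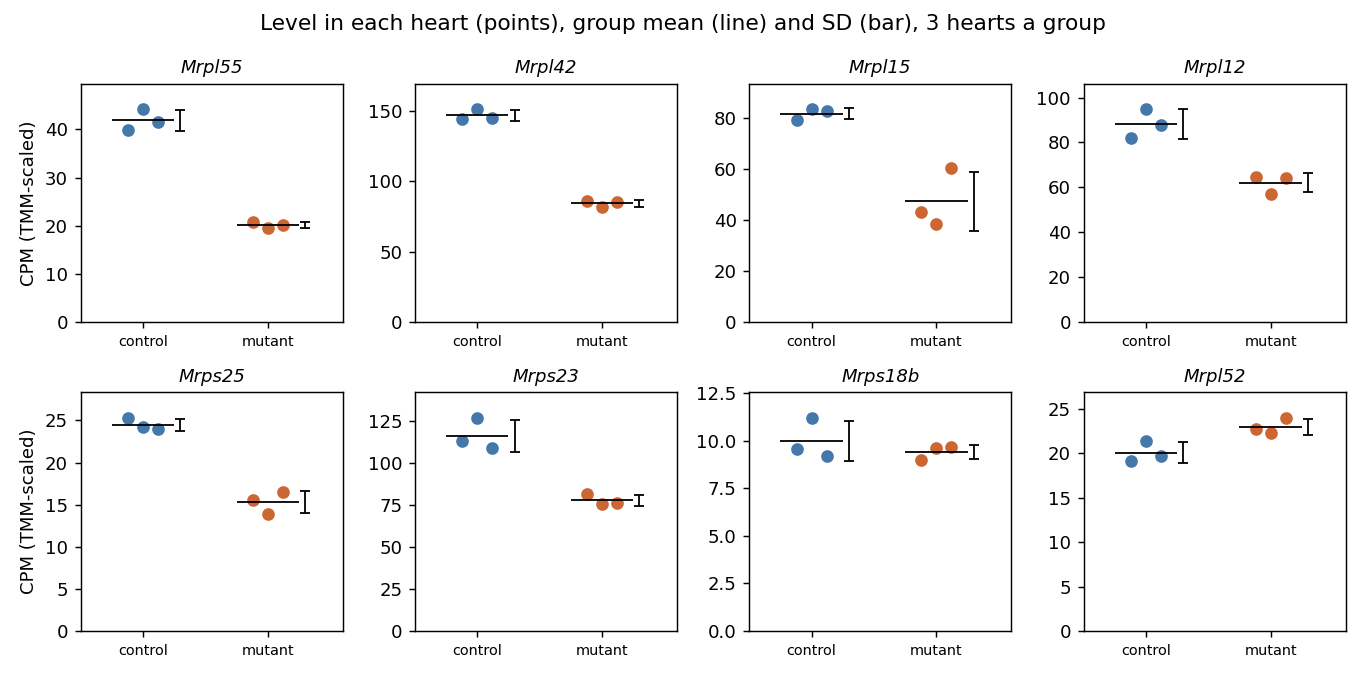
Level in CPM (TMM-scaled) of 8 genes in each heart (points, control in blue and mutant in orange), with the group mean as a line and the SD of 3 hearts as a bar. The groups are apart for Mrpl55, Mrpl42, Mrpl15, Mrpl12, Mrps25 and Mrps23 and overlap for Mrps18b, whose direction turns with library totals only, and the mutant hearts are the higher ones for Mrpl52.

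In the small subunit the largest fall was that of Mrps34 (ENSMUSG00000038880, chr17:24895116-24897502, plus strand), a protein found only in mitochondrial ribosomes. It was measured at a low level, 7.35, 10.2 and 9.07 CPM in control and 5.29, 4.31 and 6.43 CPM in mutant hearts, with a log2 fold change of -0.74 ± 0.16 (edgeR adjusted p = 0.00613). Its value is uncertain, since 63.4% of its exon bases overlap Mapk8ip3 on the opposite strand and 37.0% overlap Nme3 on its own strand. The same holds for Mrps25 (ENSMUSG00000014551, chr6:92169525-92184033, minus strand), also specific to mitochondria, where 69.8% overlap the opposite-strand gene Nr2c2. Mrps25 had 25.3, 24.2 and 24.0 CPM in control and 15.5, 13.9 and 16.5 CPM in mutant hearts (log2 fold change -0.68 ± 0.08, edgeR adjusted p = 0.000138).

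Mrps23 (ENSMUSG00000023723, chr11:88204388-88211507, plus strand), another protein without a bacterial counterpart, shares no exon bases with another gene. Its level was 113, 127 and 109 CPM in control and 81.5, 75.5 and 76.4 CPM in mutant hearts. The lowest control heart was well above the highest mutant heart, and the log2 fold change was -0.58 ± 0.07 (edgeR adjusted p = 0.000199). Mrps28 went from 31.7, 33.9 and 29.5 CPM to 21.2, 19.2 and 23.0 CPM, a log2 fold change of -0.58 ± 0.08 (edgeR adjusted p = 0.000547). Mrps24, which has a bacterial counterpart, went from 35.6 ± 3.03 to 23.5 ± 1.70 CPM, or 65.9% of control, with 15.4% of its exon bases shared with Urgcp.

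Mrps12, the counterpart of the bacterial protein next to the decoding centre, fell from 22.0, 23.4 and 22.6 CPM to 17.2, 15.8 and 16.8 CPM. Its log2 fold change was -0.45 ± 0.07 (edgeR adjusted p = 0.000769), and it was singled out for this role after its value was seen. With library totals only, Mrps12, Mrpl3, Mrpl10, Mrpl11 and Mrpl48 were not called, and the fold change of Mrpl10 turned to 0.03.

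The 3 Mrps18 genes encode paralogues of a single bacterial protein that take different places in the ribosome. Mrps18c fell from 12.6, 11.6 and 13.3 CPM to 9.95, 9.15 and 9.0 CPM (log2 fold change -0.42 ± 0.09, edgeR adjusted p = 0.00444). Mrps18a, whose protein sits in the large subunit despite its symbol, fell from 39.5, 46.6 and 45.4 CPM to 36.4, 33.6 and 35.0 CPM (-0.33 ± 0.08, edgeR adjusted p = 0.00811). Mrps18b had 9.54, 11.2 and 9.21 CPM in control and 9.0, 9.60 and 9.65 CPM in mutant hearts, which overlap (-0.08 ± 0.10, edgeR adjusted p = 0.531). The differences between the paralogues were not tested. Opposite-strand exons of Gm16279 cover 30.5% of Mrps18b, and same-strand exons of Gm43511 cover 23.2% of Mrps18c. Mrps18a and Mrps18c, with library totals only, lost their calls and the fold change of Mrps18b turned to 0.20.

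Mrps30, whose protein is also part of the large subunit, fell from 33.2, 30.4 and 35.1 CPM to 25.3, 22.4 and 23.8 CPM, 72.4% of control (log2 fold change -0.47 ± 0.08, edgeR adjusted p = 0.00116, not called with library totals only). Mrps36, now known as a component of the mitochondrial 2-oxoglutarate dehydrogenase complex rather than of the ribosome, fell from 5.53, 5.64 and 5.76 CPM to 3.99, 3.62 and 3.98 CPM. Its log2 fold change was -0.55 ± 0.10 (edgeR adjusted p = 0.00205). Placing Mrps18a and Mrps30 with the large subunit and leaving out Mrps36 left the difference between the medians of the subunits at -0.02.

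The 9 tested genes that were not called were Mrpl23, Mrpl24, Mrpl32 and Mrpl52 of the large and Mrps2, Mrps5, Mrps10, Mrps18b and Mrps27 of the small subunit, described here after their values were seen. Mrps2 and Mrpl32 missed the threshold with every mutant heart below every control heart (log2 fold changes -0.20 ± 0.07 and -0.16 ± 0.07, edgeR adjusted p 0.0525 and 0.101). Mrpl24, Mrps27 and Mrps5 had overlapping groups and log2 fold changes of -0.10 to -0.14 for the first pair and -0.07 for Mrps5. Of Mrpl24, 26.3% of exon bases overlap Rrnad1 on the opposite strand.

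Mrpl52 (ENSMUSG00000010406, chr14:54426909-54429756, plus strand), a protein specific to mitochondria, had 19.1, 21.4 and 19.7 CPM in control and 22.7, 22.3 and 24.0 CPM in mutant hearts. Every mutant heart was above every control heart, at 114% of control on average, and the log2 fold change of 0.19 ± 0.07 did not pass (edgeR adjusted p = 0.0606). Mrps10 (chr17:47368887-47381417, plus strand), with a bacterial counterpart, had 16.3, 15.0 and 15.9 CPM in control and 17.1, 17.8 and 18.3 CPM in mutant hearts (log2 fold change 0.17 ± 0.07, edgeR adjusted p = 0.087). Mrpl23 was barely detected, with 3.80, 2.70 and 2.95 CPM in control and 3.28, 3.78 and 4.47 CPM in mutant hearts, and its log2 fold change of 0.30 ± 0.17 did not pass (edgeR adjusted p = 0.188). Scaled by library totals only, Mrpl23, Mrpl24, Mrpl52, Mrps5 and Mrps10 were the 5 genes called higher.

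Levels between genes were compared per length, with the RPKM values the authors deposited (counts divided by gene length and library total, without correction for composition). The control mean spanned a ratio of 996 from the highest gene to the lowest, Mrpl53, which was too low to test, and of 116 over the 76 tested genes. The median control level was 16.1 RPKM for the 48 genes of the large subunit (quartiles 8.76 and 25.5) and 10.7 RPKM for the 29 of the small subunit (quartiles 4.3 and 19.6). By mean RPKM over all 6 hearts, the top of the large subunit was held by Mrpl12 (51.8 ± 3.87 RPKM in control, 44.3 ± 3.01 in mutant hearts, SD, n = 3), Mrpl34 (48.1 ± 5.22 and 42.2 ± 2.06) and Mrpl16 (43.1 ± 2.04 and 38.3 ± 1.26). In control hearts alone Mrpl18 (43.5 ± 1.01) stood above Mrpl16, and most of these levels lay within or near each other's SD, so that their order is not firm. The small subunit was led by Mrps23 (67.3 ± 5.50 RPKM in control, 54.7 ± 1.46 in mutant hearts), followed at a distance beyond the SD by Mrps21 (45.4 ± 1.82 and 38.8 ± 2.78) and by Mrps16 (42.6 ± 2.93 and 37.0 ± 2.33), which are within each other's spread. At the bottom were Mrpl53 (0.0676 RPKM in control hearts), Mrpl23 (0.581) and Mrps10 (1.76). Transcripts of proteins that share a single particle thus differed widely in RPKM, a value that rests on the gene length used. Mrps10 and Mrps16 were at 1.76 and 42.6 RPKM in control hearts, yet at 15.7 and 26.8 CPM. How much of the spread comes from the lengths was not tested.

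All of these high genes fell on the TMM scale: Mrpl34 to 72.0% of control (log2 fold change -0.47 ± 0.09), Mrpl16 to 73.0% (-0.45 ± 0.06), Mrps21 to 70.1% (-0.51 ± 0.07) and Mrps16 to 71.4% (-0.49 ± 0.08), with edgeR adjusted p of 0.00197, 0.000488, 0.000264 and 0.0012. Mrpl34 and Mrps16 lost their calls with library totals only. The order of the genes by RPKM was kept between the groups, with a Spearman rho of 0.99 over 77 genes, a description across genes of the same 6 libraries. Across the 76 tested genes the log2 fold change and the mean RPKM over all hearts had a rho of -0.35. The 39 genes with the higher RPKM had a median of -0.47 with 36 called lower, and the other 37 a median of -0.37 with 31 called lower. Genes are not independent replicates, and low counts make a call less likely.

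The subunits moved in step. Summed over the genes as TMM-scaled RPKM, the large subunit had 970.3, 1053 and 989.7 in control and 743, 694 and 739 in mutant hearts, or 72.2% of control. The small subunit had 482, 518 and 495 in control and 376, 349 and 371 in mutant hearts, or 73.3%. In both, mutant replicate 2 was the lowest heart and control replicate 2 the highest. The small subunit's sum divided by the large subunit's was 0.497, 0.492 and 0.500 in control and 0.505, 0.502 and 0.502 in mutant hearts (0.496 ± 0.00404 and 0.503 ± 0.00173). The ratio was higher in every mutant heart, by an amount that is small beside the fall of either sum. It does not depend on the scaling between libraries, which cancels in it. Taken over medians in place of sums, the ratio went the other way on average and the groups overlapped, with 0.666, 0.682 and 0.678 in control and 0.682, 0.654 and 0.614 in mutant hearts. In single genes the medians were -0.43 for the large and -0.41 for the small subunit, and their difference of -0.02 turned to 0.01 without control replicate 2. As a share of all counts, the genes of both subunits together held 0.267, 0.285 and 0.271% in control and 0.248, 0.236 and 0.255% in mutant hearts. Of the counts outside the mitochondrial genome they held 0.355, 0.367 and 0.360% in control and 0.305, 0.287 and 0.307% in mutant hearts, so that both shares were lower in every mutant heart.

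**Figure D3:**
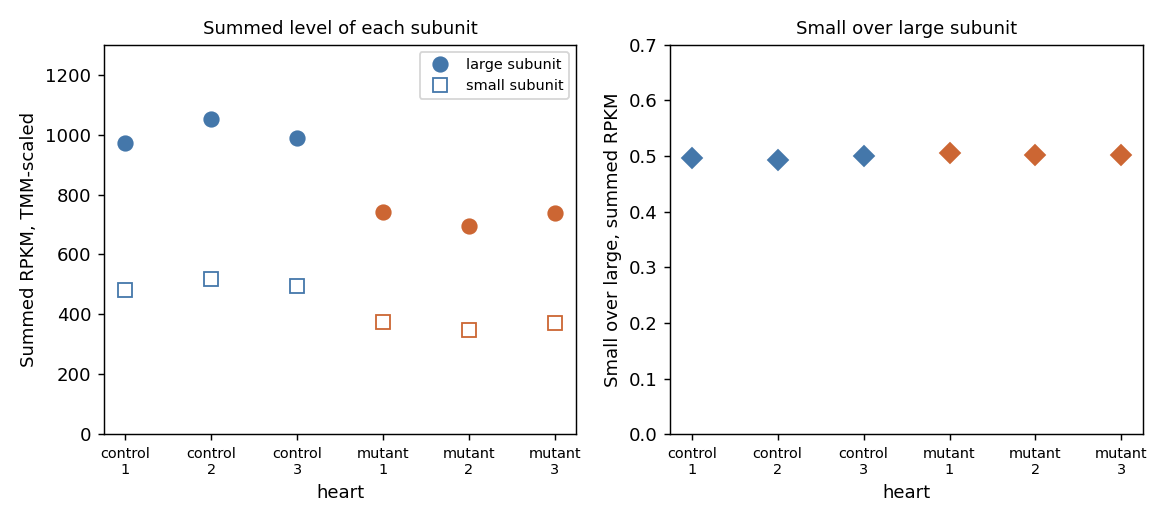
Left, summed TMM-scaled RPKM of the large subunit (filled circles) and small subunit (open squares) in each heart, control in blue and mutant in orange. Right, the small subunit's sum divided by the large subunit's: both sums are lower in all 3 mutant hearts, and the ratio runs only from 0.492 to 0.505.

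Genes with and without a bacterial counterpart had similar counts and medians. Of 45 tested genes with a bacterial counterpart 38 fell (median log2 fold change -0.42), and of 28 specific to mitochondria 26 fell (median -0.41). Within the large subunit these were 24 of 27 (median -0.45) and 17 of 18 (-0.41), and within the small subunit 14 of 18 (-0.39) and 9 of 10 (-0.41). The difference between the classes was not tested. Of 17 tested genes that share at least 10% of their exon bases with another gene, 14 fell (median -0.46), and of the other 59, 53 fell (median -0.41).

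Many of the genes start next to another gene read the opposite way. A protein-coding neighbour on the other strand, starting at most 1000 bases upstream, was annotated for 18 of the 77 genes (23.4%). The share was 8.51% of 16627 listed protein-coding genes, which include genes too low to test, and no share was taken over tested genes alone. Pairs whose starts overlap were not counted, such as Mrpl46 and Mrps11, which both fell (log2 fold changes -0.57 and -0.37). Of the 18 genes counted 14 fell (median log2 fold change -0.41). Of their 18 neighbours 4 fell and 2 rose, with a median of -0.07. These counts are near or below the shares of all tested genes, 19.5% and 18.1%, so the pairs are listed only as values. Among the pairs counted, both genes fell in 3 cases. Mrps12 fell with Sars2, the mitochondrial seryl-tRNA synthetase (172 bases between starts, -0.50 ± 0.10 for Sars2). The others were Mrpl54 with Apba3 (26 bases, -0.41 ± 0.08) and Mrpl37 with Cyb5rl (120 bases, -0.59 ± 0.10). In the fourth, Psma2, a proteasome subunit, fell (-0.32 ± 0.06) while its neighbour Mrpl32 was not called. The 2 neighbours that rose were Ska3, a kinetochore protein, by 1.25 ± 0.30 beside Mrpl57 (49 bases), and Klc4, a kinesin light chain, by 0.24 ± 0.07 beside Mrpl2 (207 bases). Ska3 was barely detected, at 0.441 CPM in control and 1.03 CPM in mutant hearts. Mrpl57 and Mrpl2 themselves fell, with log2 fold changes of -0.43 and -0.56. With library totals only, Sars2, Apba3 and Psma2 were not called. Mitd1, 66 bases from the start of Mrpl30, was not called (-0.09 ± 0.11). The pairs counted do not overlap at their starts. Pairs that do, such as Mrpl46 and Mrps11 (12.2% and 8.0% of their exon bases), can share reads there, since the kit does not mark strand.

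Other genes of mitochondrial translation were taken from lists compiled for this purpose. Pooled over ribosomal proteins with other symbols, assembly factors, translation factors, tRNA synthetases, and transcription and upkeep of mitochondrial DNA, 46 of 85 tested genes fell and 2 rose, with a median log2 fold change of -0.28. Of all tested genes 19.5% fell and 18.1% rose, with a median of -0.00. With library totals only, the counts of the pooled lists were 12 and 22 and their median 0.01. Of all genes 8.11% then fell and 50.3% rose, with a median of 0.28.

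Of 5 ribosomal proteins with other symbols, 4 fell (median -0.56). Ptcd3, a pentatricopeptide protein of the small subunit, had 124, 121 and 111 CPM in control and 79.6, 71.7 and 71.2 CPM in mutant hearts (log2 fold change -0.68 ± 0.07, edgeR adjusted p = 6.66e-05). Aurkaip1, also of the small subunit, fell from 50.9, 54.5 and 52.6 CPM to 34.3, 31.1 and 32.7 CPM (-0.69 ± 0.06, edgeR adjusted p = 3.67e-05). Chchd1 (-0.56 ± 0.07) and Gadd45gip1 of the large subunit (-0.39 ± 0.09) fell as well. The GTP-binding protein Dap3 did not pass, with 76.1, 76.0 and 77.9 CPM in control and 74.5, 68.5 and 71.0 CPM in mutant hearts (-0.10 ± 0.06, edgeR adjusted p = 0.197).

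Of 29 ribosome assembly factors, 15 fell and 1 rose (median -0.28). Tfb1m, which methylates the small-subunit rRNA, fell by 0.59 on the log2 scale, Mrm3, a methyltransferase of the large-subunit rRNA, by 0.50, and the GTPase Noa1 by 0.42. The factor that rose was Mrm1, another methyltransferase of that rRNA (0.34 ± 0.10, edgeR adjusted p = 0.0217), whose call was lost without mutant replicate 3. Of 17 translation factors 12 fell and 0 rose (median -0.35). The elongation factor Tufm, which brings tRNAs to the ribosome, fell from 21.7, 23.2 and 22.7 CPM to 14.0, 13.4 and 14.1 CPM (-0.70 ± 0.07, edgeR adjusted p = 4.26e-05). The translocase Gfm1 fell from 191 ± 9.24 to 141 ± 2.13 CPM, and Lrpprc, which stabilises mitochondrial mRNAs, from 251 ± 16.2 to 182 ± 8.12 CPM. Taco1, an activator of cytochrome oxidase translation, fell by 0.72 on the log2 scale.

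Of 22 genes that charge mitochondrial tRNAs, 10 fell and 1 rose (median -0.18, and 0.10 with library totals only, beside 0.28 for all genes). The one that rose was Ears2, the glutamyl-tRNA synthetase, which had 13.2, 14.9 and 14.7 CPM in control and 36.1, 36.5 and 33.9 CPM in mutant hearts. The groups lie far apart, with a log2 fold change of 1.31 ± 0.07 (edgeR adjusted p = 1.61e-06), the highest of the 85 genes. Qrsl1, a subunit of the enzyme that converts mischarged glutamyl-tRNA to glutaminyl-tRNA in mitochondria, fell from 35.2, 34.9 and 32.8 CPM to 24.9, 18.1 and 18.8 CPM (-0.74 ± 0.11, edgeR adjusted p = 0.000762). Iars2 (-0.33 ± 0.06) and Kars (-0.35 ± 0.06) fell too. Of 12 genes of mitochondrial transcription and DNA upkeep 5 fell and 0 rose (median -0.18, and 0.10 with library totals only, beside 0.28 for all genes). Among those that fell were Tfb2m (-0.67 ± 0.09), Mterf2 (-0.73 ± 0.09), Tefm (-0.37 ± 0.09) and Tfam (-0.28 ± 0.07, and 0.01 with library totals only).

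Counts of the RNA partners of the ribosomal proteins were lower as well. The small-subunit rRNA mt-Rnr1 had 2552, 2139.9 and 2537 CPM in control and 1319.5, 1274 and 1259.8 CPM in mutant hearts (-0.91 ± 0.08, edgeR adjusted p = 2.71e-05). The large-subunit rRNA mt-Rnr2 had 8439, 7646 and 8400.3 CPM in control and 4898, 4623 and 4458 CPM in mutant hearts (-0.81 ± 0.07, edgeR adjusted p = 2.82e-05). Both fold changes were further from 0 than the medians of the proteins that assemble with these rRNAs, a difference that was not tested. In control hearts mt-Rnr1 and mt-Rnr2 averaged 2409.5 and 8162 CPM. Both were below mt-Nd6 (17316 CPM), the lowest tested protein-coding gene of the mitochondrial genome. How fully the libraries captured rRNA was not tested. All 7 tested protein-coding genes of the mitochondrial genome fell (median -0.67), as they did with library totals only (median -0.38). On the RPKM scales fewer of them were called lower, 2 on log2(RPKM + 0.1), 4 on log2(RPKM + 1) and 0 with no filter. Of the nuclear genes for respiratory chain subunits, 72 of 81 fell and 0 rose (median -0.67), and 67 fell and 2 rose with library totals only (median -0.38).

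Of 78 tested genes for proteins of the cytosolic ribosome 2 fell and 2 rose, where 19.5% of all tested genes fell and 18.1% rose. Their median was 0.02, close to that of all genes. With library totals only, 1 fell and 46 rose, beside 8.11% and 50.3% of all genes, with a median of 0.31, beside 0.28 for all genes. Those that fell were Rpl3l, a muscle form of a large-subunit protein, from 60.6, 68.4 and 79.2 CPM to 8.41, 6.73 and 9.26 CPM (-3.09 ± 0.13, edgeR adjusted p = 4.17e-07), and Rps2 (-0.37 ± 0.10), which was not called without control replicate 2 or without mutant replicate 2. Those called higher were Rpl3, the general form (0.24 ± 0.07), and Rpl22 (0.19 ± 0.05). Each of these calls was lost in 4 of the 6 fits that leave out a heart: Rpl3 without control replicate 1 or 3 or mutant replicate 2 or 3, and Rpl22 without control replicate 2 or 3 or mutant replicate 2 or 3. The values of Rpl22 and Rpl3 are uncertain where reads are shared with pseudogene copies, of which cytosolic ribosome genes have many.

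**Figure D4:**
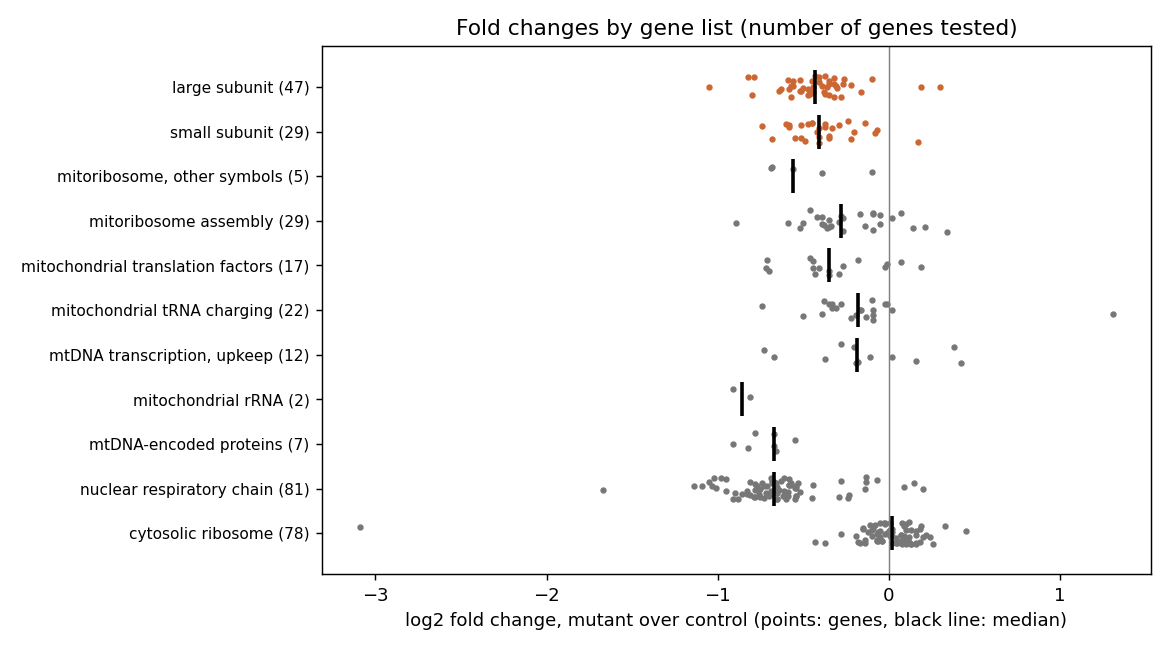
Log2 fold change, mutant over control, of each tested gene (points) by list, with the list's median as a black line and the number tested in parentheses. The large and small subunits have medians of -0.43 and -0.41, between those of mitochondrial rRNA and respiratory chain genes on 1 side and the cytosolic ribosome at 0.02 on the other, under TMM scaling. With library totals only, the medians of the tRNA charging and the transcription lists turn to 0.10 and that of the cytosolic ribosome moves to 0.31, beside 0.28 for all genes.

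How far the genes of the mitochondrial ribosome fell depended on the scaling between libraries, and where they stood among all genes also changed on some scales. With library totals only the median over all tested genes moved to 0.28 and that of the mitochondrial ribosome genes to -0.13, which left them 0.41 below, as under TMM scaling. Under both scalings 73 of the 76 genes lay below the median of all genes. On the log2(RPKM + 0.1) scale with limma, 27 fell and 5 rose, beside 8.21% and 49.7% of all genes, and the genes stood at -0.39 from the median of all genes. The other settings without a correction for composition gave 26 lower and 5 higher on log2(RPKM + 1) (all genes 8.17% and 49.4%), and 21 lower and 3 higher with no filter on low values (5.81% and 34.4%). On these 2 scales the median stood at -0.29 and -0.21 from that of all genes, with 70 of 76 and 69 of 77 genes below it. With the mitochondrial genome left out of the counts, 66 fell and 1 rose, the latter being Mrpl52 (all genes 18.7% and 18.8%). Of the 67 genes that fell, 56 kept their call without any 1 heart, and 20 kept it in each of the 15 alternatives, Mrpl55, Mrpl14, Mrpl42, Mrpl30, Mrps23 and Mrps25 among them.

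**Figure D5:**
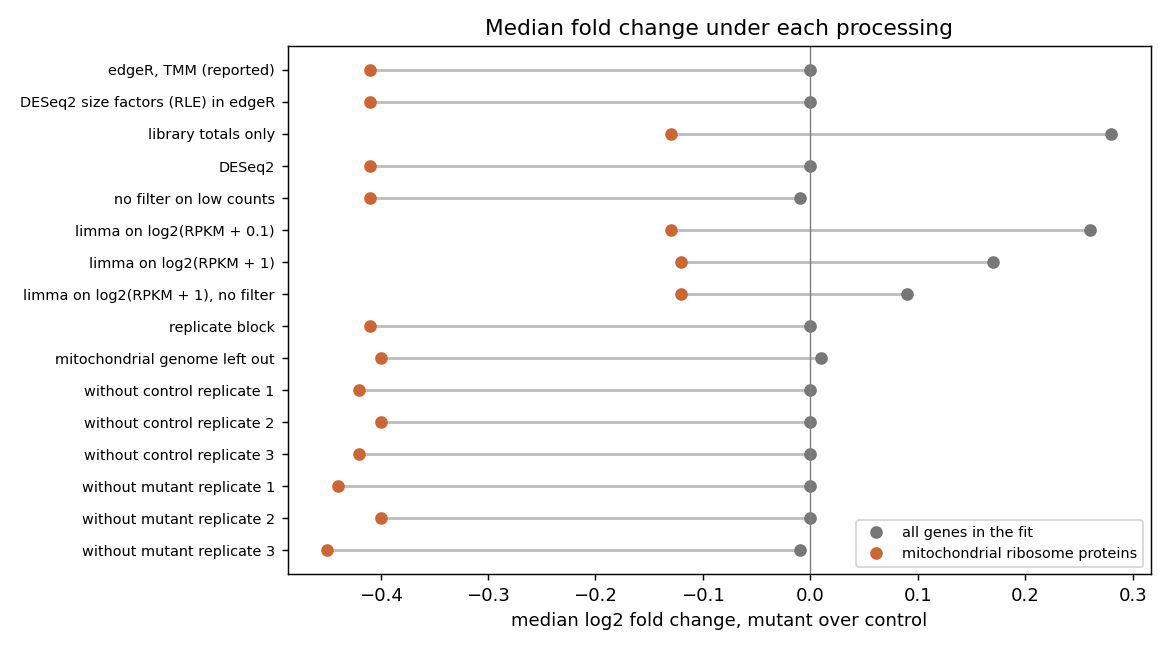
Median log2 fold change, mutant over control, of the mitochondrial ribosome genes (orange) and of all genes in the same fit (grey) under each processing, joined by a line. The orange point is left of the grey point in each, and both move to the right with library totals only and on the RPKM scales.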

How the data were processed

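RNA of whole hearts was sequenced from 3 control and 3 mutant pups, grouped by sample title. The authors deposited counts, whole numbers per Ensembl identifier. The submitters' processing notes name STAR 2.5.2b, featureCounts 1.5.1, cutadapt 1.9 and mm10, with no role given. How strand and multiply mapping reads were handled, and with which annotation, is not given in the sources. The kit, TruSeq RNA version 2 per the labels' protocols, does not mark strand. The deposited RPKM values equal counts over a gene length and a library total, with a relative spread of 8.46e-10, and carry no correction for library composition.

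Identifiers were matched to GENCODE M21 (20081 of 20121). The test was that of edgeR 4.0.16 in R 4.3.3 on the counts (filterByExpr at its defaults, TMM, quasi-likelihood F test with group as the only term), which left 14877 genes. A gene was called at a Benjamini-Hochberg adjusted p under 0.05. CPM are counts over TMM-scaled library size, errors are SD over 3 hearts, and the SE of a log2 fold change is its size over the square root of F. The edgeR test was also run on simulated counts in which few genes changed, in random directions. Such data cannot test the scaling for composition, on which the calls depend. The alternatives used other scalings, DESeq2 1.42.0, limma 3.58.1 on log2(RPKM + 0.1) and log2(RPKM + 1), no filter, a replicate block, the mitochondrial genome left out, and each heart left out. Depth was 43314706 to 62095277 counts per library.

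Genes named from each subunit were the 6 largest falls without overlap between groups, the 3 highest by mean RPKM, and Mrpl12, Mrpl58, Mrps18a, Mrps18b, Mrps18c, Mrps30 and Mrps36. From each other list, up to 4 called genes with the smallest adjusted p were named, apart from a few left out. Genes named beyond this rule were picked with their values in view. The genes, lists and tests were chosen with earlier results of these data known.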

Additional observations from a re-analysis of the deposited data

How the results depend on the processing

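The number of calls and the size of the medians were tied to the scaling for composition, as was the direction of some single genes and other lists. For the mitochondrial ribosome genes, the large subunit and the small subunit, library totals only gave 24, 16 and 8 lower, 5, 3 and 2 higher, and medians of -0.13, -0.15 and -0.12. On log2(RPKM + 0.1) these were 27, 17 and 10 lower, 5, 3 and 2 higher, and -0.13, -0.14 and -0.13. On log2(RPKM + 1) they were 26, 17 and 9 lower, 5, 3 and 2 higher, and -0.12, -0.13 and -0.11. On log2(RPKM + 1) with no filter they were 21, 14 and 7 lower, 3, 2 and 1 higher, and -0.12, -0.12 and -0.11. None of these 4 settings corrects for composition, and they moved the median of all genes to 0.28, 0.26, 0.17 and 0.09. In the same order, the pooled lists of mitochondrial translation gave 12, 14, 14 and 12 lower, 22, 20, 20 and 16 higher, and a median of 0.01 in each. The tRNA charging list and the transcription list had medians of 0.10, 0.10, 0.09 and 0.09 each, and the assembly list 0.00 in 3 of them. The proteins of the mitochondrial genome had medians of -0.38, -0.39, -0.39 and -0.38, with 7, 2, 4 and 0 lower. Mrps18b went to 0.20, 0.20, 0.17 and 0.17, and to 0.01 without control replicate 2. Tfam went to 0.01 in all 4. Of the genes named from the subunits, Mrpl34, Mrpl58, Mrps18a, Mrps18c and Mrps30 lost their call in all 4, Mrps16 and Mrps34 in 2 of them and Mrpl12 and Mrpl15 in 1. Of the other lists' named genes, Gadd45gip1, Gfm1, Iars2, Kars, Mrm3, Noa1, Rps2 and Tefm lost theirs with library totals only. Of the 67 genes called lower, 9 were not called without control replicate 2 and 11 without mutant replicate 2.

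Over all genes the share called lower without 1 heart was 14.8 to 18.9%. With the replicate block, 68 of the genes fell and 1 rose, Mrpl52 of the large subunit. Over all genes 3229 fell and 3090 rose, against 2898 and 2688 without the block. Whether the numbers pair the hearts was left undecided. Same-numbered hearts had correlations of 0.155, -0.0502 and 0.0956 in their deviations from group means, and other pairs -0.175 to 0.0913. The hearts numbered 1 and 3 correlated best with their own number, and those numbered 2 did not. With the mitochondrial genome left out, 1 rose, also Mrpl52. Leaving out 1 heart at a time gave 56 to 65 lower for all genes of the ribosome, 36 to 42 for the large and 20 to 25 for the small subunit, with medians of -0.45 to -0.40, -0.46 to -0.40 and -0.42 to -0.38. The pooled lists then had 1 to 3 genes higher, the lowest without mutant replicate 3. The difference between subunit medians, -0.02, ran from -0.08 without control replicate 3 to 0.01 without control replicate 2, and was -0.00 with genes of shared exons left out. The cytosolic ribosome's median was 0.31, 0.30, 0.25 and 0.25 in the 4 settings without a correction, with 46, 49, 51 and 46 genes higher. Of all genes 50.3, 49.7, 49.4 and 34.4% were higher there. When 1 heart was left out, the cytosolic ribosome's median ran from -0.01 without control replicate 1 or mutant replicate 3 to 0.07 without control replicate 2. The cause of these changes was not tested. Low counts kept Mrpl53 out of the filtered fits, and without the filter it was not called; Mrpl23 had the next lowest counts and the widest SE of the large subunit.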
